A study of Mus musculus with 37 samples.

Results

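The subject here is a set of 7 genes whose products buffer potassium and water at the perivascular endfeet of astrocytes, chosen by symbol out of the 21975 genes in the tables. They are *Kcnj10*, *Kcnj16*, *Aqp4*, *Dtna*, *Dag1*, *Mlc1* and *Hepacam*, and all 7 were found and passed the filter on low counts in every comparison. RNA was taken 4 months after surgery from hippocampal astrocytes that had been pulled out of dissociated tissue with beads against the surface antigen ACSA-2. The animals were male wild-type mice of an outbred strain (CD1 in the methods, CD31 in the labels). PTE+ mice had received a controlled cortical impact (CCI), a piston injury to the cortex of the right side, and then had at least 2 epileptic episodes on EEG. PTE- mice had the same severe injury and did not meet that criterion. Sham mice had the skull opened without an impact, and electrodes were implanted in all groups, so the controls share the surgery and the implant. The contralateral hippocampus was sampled in 5 PTE+, 10 PTE- and 5 sham mice and the ipsilateral hippocampus in 4, 8 and 5, which makes 37 libraries from 20 mice. Both hippocampi came from 17 of these mice (4 PTE+, 8 PTE- and 5 sham). PTE status is defined by seizures and not by a genotype, so each mouse stands for its own lesion and recording.

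Astrocytes clear the potassium that active neurons release, and the inwardly rectifying channel Kir4.1 (*Kcnj10*) carries much of that current. Kir5.1 (*Kcnj16*) forms no efficient channel alone but joins Kir4.1 in heteromers. AQP4 (*Aqp4*) is the water channel of the endfoot, where it is held by the dystrophin complex: dystroglycan (*Dag1*) binds laminin and agrin in the vascular basement membrane, and α-dystrobrevin (*Dtna*) is a cytoplasmic part of that complex. MLC1 (*Mlc1*) and GlialCAM (*Hepacam*) form a membrane complex at astrocyte junctions around vessels that takes part in cell volume regulation, and loss of either gives a leukoencephalopathy with cysts in people. Loss of Kir4.1 in astrocytes gives seizures in mice, which makes the group one of interest in post-traumatic epilepsy.

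Total expected counts ran from 25371887 to 59846479 per library, and genes with at least 1 count from 9020 to 15545. The ipsilateral library of PTE- mouse a8_11 stood apart: it had the fewest detected genes, and 2234 of 6953 genes with a median above 1000 counts held 3 counts or fewer there (32.1%, against 14.2% in the next library). The 10 astrocyte markers summed to 5946 to 20744 TPM (length-scaled transcript counts, each library summing to the same total), with the lowest sum in that same library. Markers of other cells were present throughout. Over the libraries, 9 endothelial and mural markers summed to 811 to 8148 TPM, 8 microglial markers to 27.1 to 1270.1, 8 oligodendrocyte lineage markers to 61.5 to 1757 and 7 neuronal markers to 61.3 to 1107. No listed marker was at 0 in every library. In these bulk samples, fewer cells of a type and less RNA per cell cannot be told apart.

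The 250 bases upstream of the annotated start of the channel's 2 subunit genes are shown because the 2 transcripts had like levels and their products form 1 channel. They are RefSeq sequence of build GRCm38.p6, on the plus strand, written 5′ to 3′, and capitals mark the NFI half-site TTGGC or its reverse complement, searched on both strands together with the TATA box TATAAA.
Kcnj10, chr1:172340960-172341209: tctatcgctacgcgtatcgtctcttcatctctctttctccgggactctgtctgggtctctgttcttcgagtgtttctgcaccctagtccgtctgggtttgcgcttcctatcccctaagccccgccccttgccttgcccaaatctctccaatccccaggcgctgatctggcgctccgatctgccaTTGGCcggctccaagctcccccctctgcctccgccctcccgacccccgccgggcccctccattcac
Kcnj16, first annotated start, chr11:110967783-110968032: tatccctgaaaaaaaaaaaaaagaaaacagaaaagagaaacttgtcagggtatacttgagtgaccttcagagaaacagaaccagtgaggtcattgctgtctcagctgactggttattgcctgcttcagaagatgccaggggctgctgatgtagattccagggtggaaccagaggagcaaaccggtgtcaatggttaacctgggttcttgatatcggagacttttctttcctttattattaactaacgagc
The stretch before *Kcnj10* held 17 CpG dinucleotides and a G+C content of 62.0%, and that before *Kcnj16* held 3 and 42.8%, where the median over 32851 RefSeq windows of that length was 6 CpG. The half-site occurred 1 time in the first and not in the second, and 41.5% of all windows held it. Neither held the TATA box, which was found in 12.4% of windows. The files hold no measurement of binding or methylation at these stretches.

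The members lie on 5 chromosomes of the mouse build GRCm38. *Kcnj10* spans chr1:172341210-172374085 on the plus strand, *Kcnj16* chr11:110968033-111027968 on the plus strand and *Mlc1* chr15:88955884-88979007 on the minus strand. *Hepacam* (chr9:37367351-37386575 on the plus strand) and *Dag1* (chr9:108204634-108263958 on the minus strand) share a chromosome far apart, as do *Aqp4* (chr18:15389496-15410982 on the minus strand) and *Dtna* (chr18:23415135-23659715 on the plus strand). All 7 are protein-coding, and these positions are those of the whole genes.

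Compared per transcript length, *Mlc1* was the most abundant member. Its level over the 37 libraries ran from 846 to 1369 TPM with a median of 1095, and its mean ranked 78 among the 21975 genes. *Aqp4* followed with a median of 682 TPM (121 to 973), *Hepacam* with 233 (40.4 to 389) and *Dtna* with 144 (52.9 to 298). The lowest levels were those of *Dag1*, with a median of 98.2 TPM, *Kcnj16* with 79.3 and *Kcnj10* with 74.3. The upper part of this order held within libraries: *Mlc1* was above *Aqp4* in 20 of 20 contralateral and 17 of 17 ipsilateral libraries, and *Aqp4* above *Hepacam* in as many. *Hepacam* was above *Dtna* in 19 of 20 and 16 of 17. Further down the neighbours did not separate, with *Dag1* above *Kcnj16* in 16 of 20 and 10 of 17 and *Kcnj16* above *Kcnj10* in 10 of 20 and 9 of 17. The order of the medians was the same in both hemispheres. The median ratio of *Kcnj10* to *Kcnj16* TPM lay between 0.947 and 1.09 in the 6 groups, and in the 5 groups other than ipsilateral PTE- single libraries went from 0.203 to 3.21. In ipsilateral PTE-, which holds a8_11, they went from 0.0143 to 1.48.

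The members differed widely in how much they varied between libraries of one group. All further values are CPM, each gene's reads as a share of the library, scaled with TMM factors over the 37 libraries, and suit comparison of a gene between libraries. In the contralateral hippocampus the pooled within-group SD of log2(CPM + 1) was 0.21 for *Aqp4* and 0.22 for *Mlc1*. These SDs lay above those of only 0.110% and 0.147% of the 10861 genes with a mean above 5 TPM, whose median SD was 1.32. Abundant genes vary less in such data. Among genes within 2-fold of the same mean TPM, the percentiles were 0.615 of 325 genes for *Aqp4* and 3.41 of 176 for *Mlc1*. *Dtna* (0.38), *Hepacam* (0.49) and *Dag1* (0.67) were between, and the channel subunits *Kcnj10* (0.76) and *Kcnj16* (0.76) varied most, at percentiles 51.1 and 50.8 among genes of like level. In the ipsilateral hippocampus the SD of *Kcnj10* was 1.90 with mouse a8_11 and 0.71 without it, that of *Dag1* 1.48 and 0.42, and that of *Mlc1* 0.25 and 0.26.

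The ipsilateral library of a8_11 held the lowest value of all 37 for 6 of the 7 members. *Kcnj10* stood at 0.534 CPM, against 58.5 to 316 in the other 7 ipsilateral PTE- libraries, and *Dag1* at 5.04 against 239.7 to 514. *Kcnj16* was at 25.4 CPM, *Dtna* at 35.5, *Hepacam* at 111 and *Aqp4* at 362. *Mlc1* was the exception, at 2045 CPM against 1571 to 2682. Because this library also lacked many genes that are abundant elsewhere, many ipsilateral results below are given with and without it.

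**Figure D1:**
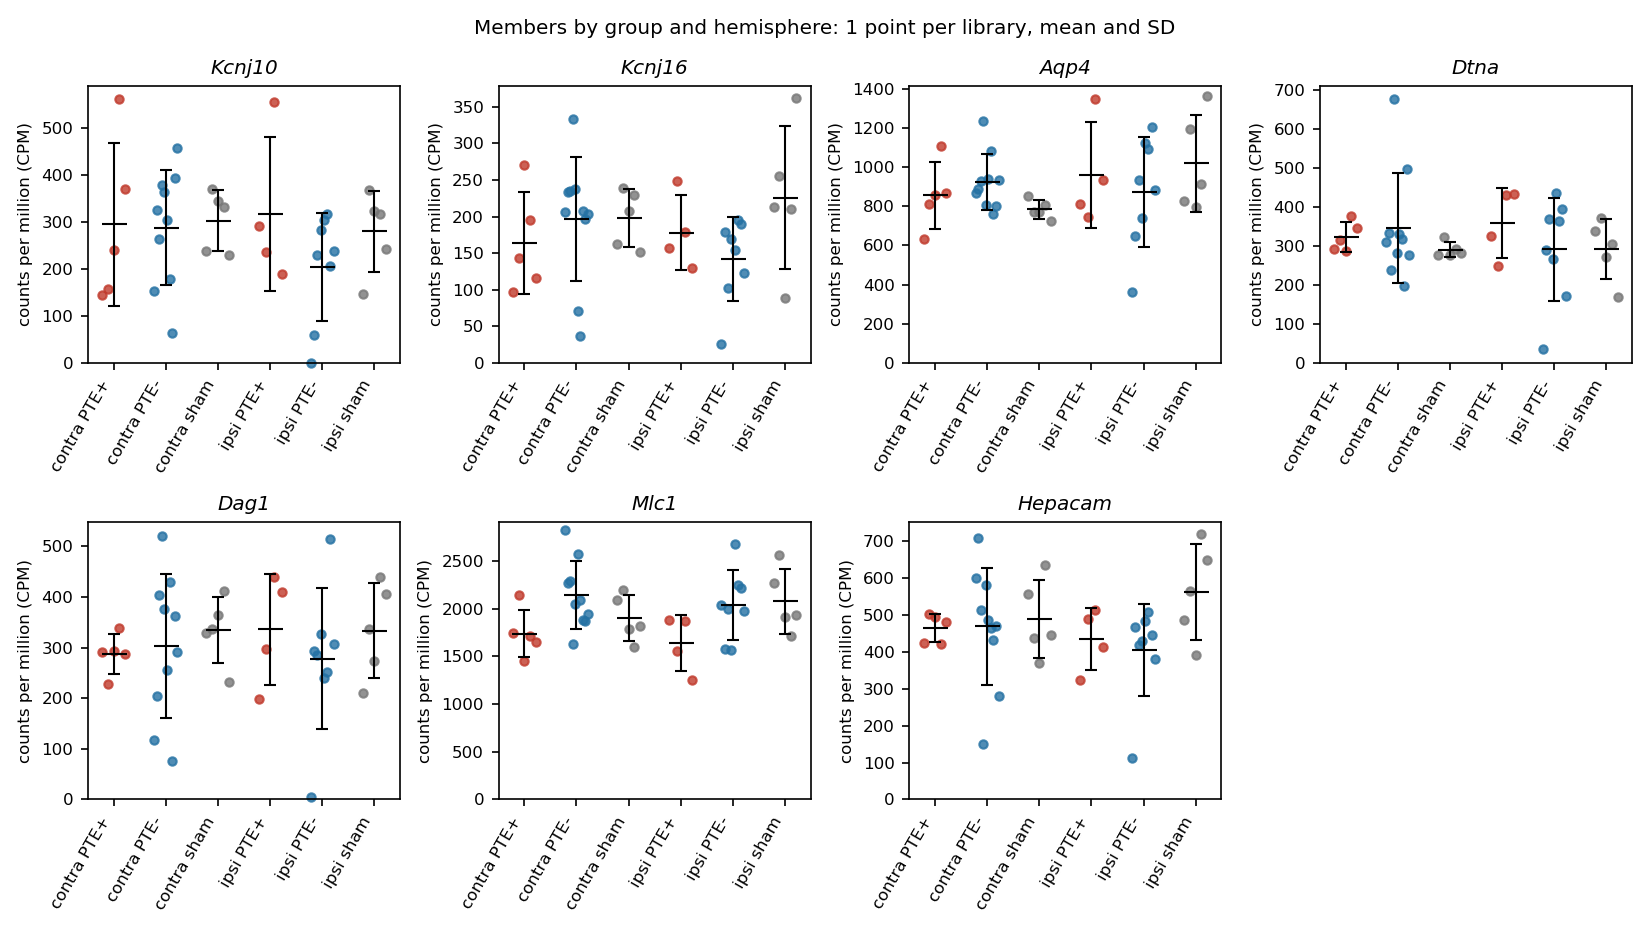
CPM of each member (y axis, linear from 0) in every library, by hemisphere and group (x axis, contra for contralateral and ipsi for ipsilateral). Each point is 1 library and the bar gives the mean and SD. The groups overlap in each panel, and the lowest ipsilateral PTE- point of all members except *Mlc1* is mouse a8_11, with *Kcnj10* at 0.534 CPM.

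The first question was whether the set differed between injured mice with and without epilepsy, away from the lesion. In the contralateral hippocampus *Mlc1* was lower in PTE+ than in PTE- astrocytes, and it was the 1 member of 7 to meet the study's own criteria (p below 0.05 before adjustment, with means 1.2-fold apart or more and one of them over 5 TPM), as did 1.26% of the 14642 genes tested, while 2.21% had an unadjusted p below 0.05. *Mlc1* stood at 1452, 1651, 1718, 1742 and 2142 CPM in the 5 PTE+ libraries. The 10 PTE- libraries ran from 1631 to 2827 with a median of 2070.3, and the 5 sham libraries held 1602, 1792, 1815, 2094 and 2200.5. Of the 5 PTE+ values, 4 lay below 9 of the 10 PTE- values, the groups overlapped, and sham spread across both. The log2 fold change was -0.30 (SE 0.13), with a 95% interval of -0.58 to -0.028, an unadjusted p of 0.0326 and an adjusted p of 0.9998 in edgeR's quasi-likelihood test. An exact two-sided permutation test of log2(CPM + 1) gave p = 0.0353, and 0.0465 without mouse a8_11. No member had an adjusted p below 0.05, a threshold that 0.00683% of genes passed. The edgeR call under the criteria was lost when library totals alone were used for scaling (p = 0.0944), when limma was run on log2(TPM + 1) (p = 0.231) and when any 1 of 6 libraries was left out, among them contralateral a8_11 (log2 fold change -0.24, p = 0.0612). It was kept with DESeq2, the tool of the study (p = 0.0137), with the name prefix as a covariate (p = 0.0202) and with voom quality weights (log2 fold change -0.43, p = 7.89e-04), with adjusted p of 0.446 or more.

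The estimate for the partner of MLC1 was near 0. *Hepacam* held 421, 424, 480.2, 493.2 and 502 CPM in PTE+ and 150.2 to 708 with a median of 478 in PTE- libraries, with sham between 369 and 634. The 5 PTE+ values lay close together inside the wide PTE- range, whose lowest library was mouse a8_9. Its log2 fold change was -0.011 (SE 0.24), with an interval of -0.51 to 0.48 that includes the estimate for *Mlc1*, and the difference between the 2 genes' changes was not tested.

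For the water channel, *Aqp4* stood at 632, 809.7, 860, 870.2 and 1109.9 CPM in contralateral PTE+ libraries, at 762 to 1233 with a median of 909 in PTE- and at 723, 771, 772, 806 and 852 in sham. PTE- was above most sham values and overlapped both other groups. The log2 fold change of PTE- against sham was 0.24 (SE 0.15), with an interval of -0.064 to 0.55 and p = 0.115 in edgeR, while the exact permutation test gave p = 0.04 and 0.0445 without a8_11. This test and that of *Mlc1* in contralateral PTE+ against PTE- were the only 2 of 77 permutation tests with p below 0.05, before any correction. The 77 cover the 7 members and 11 comparisons. Within mice whose names start with a8, *Mlc1* in PTE+ minus PTE- was -0.20 on the log2 scale (2 against 4, exact p = 0.467) and within a9 -0.36 (3 against 6, exact p = 0.0119, the smallest possible). *Aqp4* in PTE- minus sham was 0.26 within a8 (exact p = 0.267) and 0.20 within a9 (exact p = 0.179). The labels do not say what the prefix stands for.

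The potassium channel subunits did not pass the test. *Kcnj10* held 145, 157, 241, 369.5 and 561 CPM in contralateral PTE+ libraries, 63.7 to 457 with a median of 315 in PTE- and 230.1, 239, 333, 344 and 369 in sham. PTE+ mouse a9_18 held the highest value of all, and the other 4 lay inside the PTE- range. Its log2 fold change of PTE+ against PTE- was 0.039 (SE 0.36) with an interval of -0.71 to 0.79. *Kcnj16* held 97.2, 116, 144, 195 and 270.4 CPM in PTE+, 37.0 to 333 with a median of 207 in PTE- and 151, 163, 208, 229 and 238 in sham, and its log2 fold change was -0.25 (SE 0.36) with an interval of -0.997 to 0.49. These intervals leave room for sizeable differences in either direction. Of the anchors of the endfoot, *Dag1* gave -0.085 (SE 0.32) and *Dtna* -0.10 (SE 0.23), from means of 287 ± 39.7 against 304 ± 142 CPM and 323 ± 37.9 against 346 ± 141 CPM (SD, n = 5 and 10).

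Against sham, no member met the criteria in either injured contralateral group, with 0.751% of genes called for PTE- and 0.512% for PTE+, and none had an adjusted p below 0.05 (0.0% and 0.0% of genes). None had an unadjusted p below 0.05 in edgeR or DESeq2, where edgeR gave such a p for 1.54% and 1.23% of genes. With limma and voom quality weights, *Mlc1* did for PTE- against sham (log2 fold change 0.24, p = 0.0272). The log2 fold changes of PTE- against sham went from -0.13 for *Dag1* to 0.26 for *Dtna*, with a median of -0.0096 against 0.068 over all genes. Those of PTE+ against sham went from -0.26 for *Kcnj16* to 0.16 for *Dtna*, with a median of -0.074 against 0.032. For PTE+ against PTE- the median was -0.10 against -0.047, and 6 of 7 members were on the lower side.

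**Figure D2:**
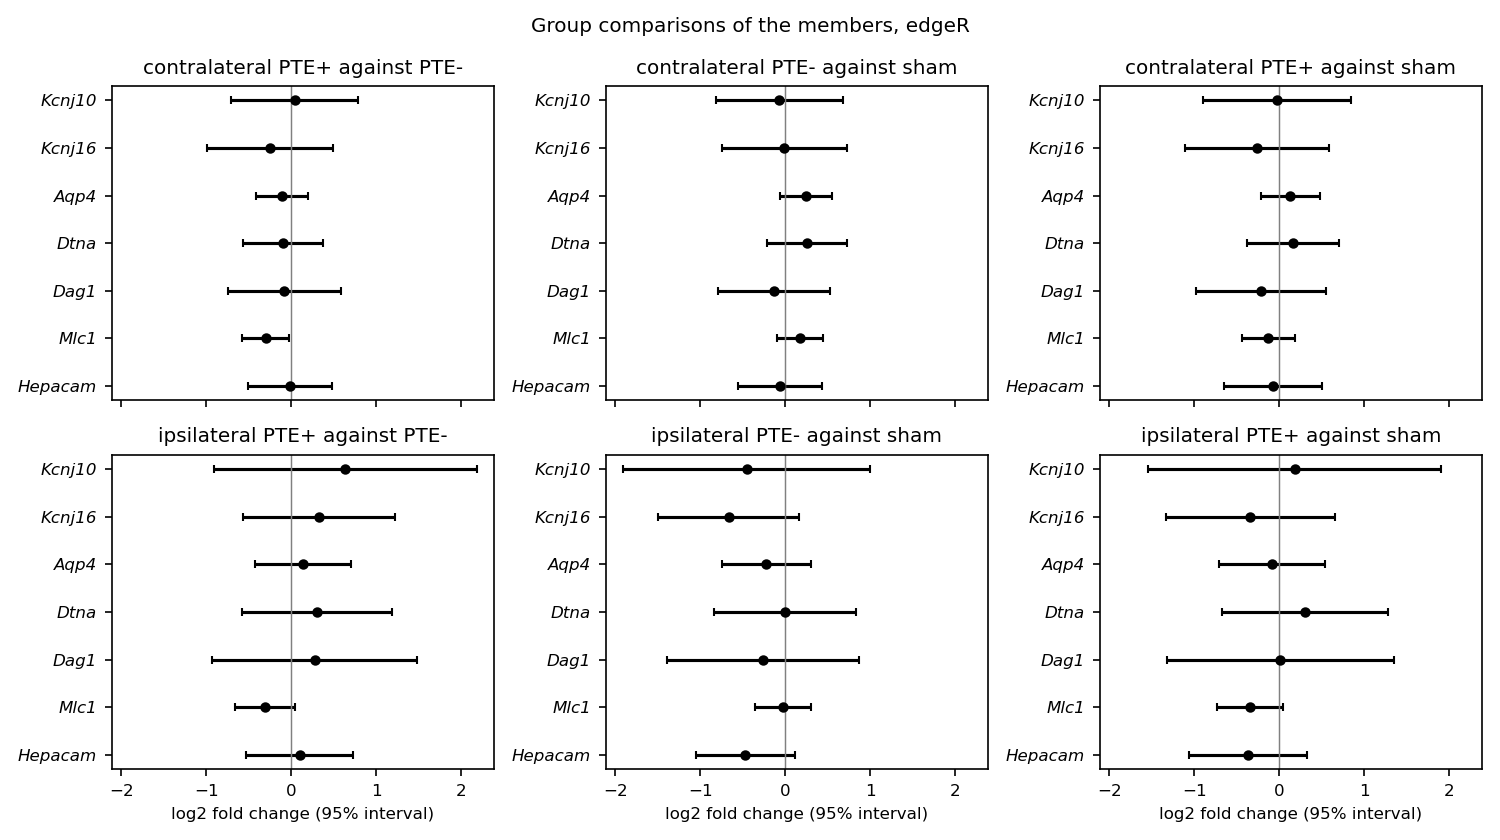
Log2 fold changes from edgeR (x axis, points) with 95% intervals (bars) for the 7 members (y axis) in the 3 group comparisons of each hemisphere. The interval of *Mlc1* for contralateral PTE+ against PTE- (-0.58 to -0.028) is the only one of the 42 that leaves out 0, and those of *Kcnj10* in the ipsilateral hippocampus are the widest.

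On the side of the lesion the estimate for *Mlc1* was of like size. Its values were 1258, 1561, 1868 and 1885 CPM in the 4 PTE+ libraries, 1571 to 2682 with a median of 2019 in the 8 PTE- libraries and 1711, 1909, 1939, 2275 and 2568 in sham. The groups overlapped, and the lowest of the 17 was PTE+ mouse a9_19. The log2 fold change of PTE+ against PTE- was -0.31 (SE 0.17) with an interval of -0.67 to 0.044 and p = 0.0823, and of PTE+ against sham -0.34 (SE 0.18) with an interval of -0.73 to 0.047 and p = 0.0814 (edgeR, adjusted p 0.99999 in both). The exact permutation p was 0.0848 and 0.0873. The estimate against PTE- was -0.28 without a8_11. Among mice named a9, the difference of 3 PTE+ from 5 PTE- mice was -0.45 on the log2 scale (exact p = 0.0714), and the lone PTE+ mouse named a8 lay 0.019 above the mean of 3 PTE- mice. The 4 PTE+ mice also gave contralateral libraries, so the 2 sides are not independent.

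Ipsilateral *Hepacam* in sham was at 390.1, 485, 564, 648 and 719 CPM, against 111 to 506 with a median of 436 in PTE- and 324, 413, 488 and 512 in PTE+. Of the 5 sham values, 3 lay above all 12 values of injured mice. The log2 fold change of PTE- against sham was -0.47 (SE 0.28) with p = 0.106, and -0.31 with p = 0.0877 without a8_11. For PTE+ against sham it was -0.37 (SE 0.33) with p = 0.279. *Aqp4* held 743, 812, 934 and 1349 CPM in PTE+, 362 to 1203 with a median of 907 in PTE- and 797, 826, 913, 1196 and 1364 in sham, and its log2 fold changes were 0.14 (SE 0.27), -0.22 (SE 0.25) and -0.088 (SE 0.30) for PTE+ against PTE-, PTE- against sham and PTE+ against sham. Without a8_11 the first 2 were 0.056 and -0.084. The 3 groups again overlapped. The highest sham value was that of a9_9, without which the estimate of PTE+ against sham was 0.041.

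*Kcnj10* held 188, 235, 292 and 555 CPM in ipsilateral PTE+ libraries, 0.534 to 316 with a median of 234 in PTE- and 148, 243, 317, 323 and 369 in sham. The lowest 2 were both PTE- mice, a8_11 and a8_14 (58.5 CPM). In ipsilateral a8_14, too, 12.2% of the genes abundant elsewhere held 3 counts or fewer. The log2 fold change of PTE+ against PTE- was 0.64 (SE 0.74) with an interval of -0.91 to 2.18, and 0.48 (SE 0.39) without a8_11. *Kcnj16* held 129, 156, 179 and 248 CPM in PTE+, 25.4 to 196 with a median of 162 in PTE- and 89.4, 210, 213, 255 and 362 in sham. Of the 5 sham values, 4 lay above all 8 PTE- values and the fifth, a9_10, below 7 of them, with a log2 fold change of -0.67 (SE 0.40) and p = 0.109, or -0.48 and p = 0.105 without a8_11. *Dag1* ran from 5.04 to 514 with a median of 289 CPM in PTE- and from 209.8 to 439 in sham, and *Dtna* from 35.5 to 436 with a median of 326 and from 170.2 to 371. Their log2 fold changes of PTE- against sham were -0.26 (SE 0.54) and -0.0022 (SE 0.40), with intervals of -1.39 to 0.87 and -0.84 to 0.83, and -0.052 and 0.20 without a8_11, which turned the sign of *Dtna*. Those of PTE+ against PTE- were 0.28 (SE 0.58) and 0.30 (SE 0.42), and 0.12 and 0.17 without a8_11.

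No member met the criteria or had an unadjusted p below 0.05 in the 3 ipsilateral comparisons in edgeR or DESeq2. The criteria called 0.503% of 14903 genes for PTE+ against PTE-, 0.986% for PTE- against sham and 0.49% for PTE+ against sham, and an adjusted p below 0.05 was reached by 0.0% in each. An unadjusted p below 0.05 was reached by 1.75%, 1.58% and 1.66% in that order. With limma and voom quality weights, *Mlc1* met the criteria for PTE+ against PTE- (log2 fold change -0.35, p = 0.0344, adjusted p 0.99997). All 7 members were on the lower side for PTE- against sham, with a median log2 fold change of -0.26 against 0.024 over all genes. Without a8_11, 5 of 7 were lower and the median was -0.084 against 0.070. RLE factors, library totals, DESeq2 and limma on TPM each put 2 of 7 on the higher side, and voom quality weights 4 of 7 with a median of 0.038, so that the direction of the set turned. For PTE+ against PTE- the median was 0.28 with 6 of 7 higher, 0.12 without that library, and -0.070 with 3 of 7 higher under voom quality weights, where the direction turned too. Under voom quality weights the median of all genes was -0.044 for PTE- against sham and -0.050 for PTE+ against PTE-.

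Markers of cell content also differed between these libraries. In ipsilateral sham the 10 astrocyte markers summed to 13384 to 20682 TPM, in PTE- to 5946 to 18145 and in PTE+ to 12625 to 16552. Among them *Aldoc* and *Aldh1l1* met the criteria as lower in both injured groups than in sham, with log2 fold changes of -0.72 and -0.63 in PTE- and -0.77 and -0.61 in PTE+. The criteria called 0.986% and 0.49% of all genes in these 2 comparisons. Of the 10 markers, 7 were on the lower side and 3 on the higher in PTE-, and 9 and 1 in PTE+. Median *Gfap* was 656 TPM (331 to 2043) in PTE-, 558 (266 to 1036) in PTE+ and 282 (212 to 723) in sham. These ranges overlapped, and no astrocyte marker on the higher side had an unadjusted edgeR p below 0.05 in either comparison with sham. The 5 ependymal and choroid plexus markers summed to 45.6 to 1052 TPM in sham, 113 to 1213 in PTE+ and 176 to 8889 in PTE-, with 6407 in a8_11. The astrocyte marker sum in contralateral libraries was 13079 to 15290 TPM in PTE+, 11858 to 18201 in PTE- and 13437 to 20744 in sham. In the contralateral PTE+ against PTE- comparison, 7 of 7 neuronal markers were on the higher side and 1, *Snap25*, met the criteria (log2 fold change 1.36), as did the endothelial *Ly6c1* (1.04). The 10 astrocyte markers gave 9 on the lower side and 1 on the higher, and 0 met the criteria. Their median log2 fold change was -0.14, against -0.047 over all genes. Of 9 endothelial and mural markers 8 were on the higher side there, and 1.26% of all genes met the criteria. Of the other markers, the endothelial *Cldn5* was higher in contralateral PTE+ than in sham (1.42), and *Aldoc* was lower on the ipsilateral side of PTE- mice (-0.56) and in their hemisphere difference from sham (-0.89). Without a8_11 these last 2 were -0.24 and -0.56 and no longer met the criteria, while *Aldoc* and *Aldh1l1* in ipsilateral PTE- against sham, at -0.59 and -0.56, still did. *Kl*, *Ttr* and *Mog* also had unadjusted p below 0.05 in some comparisons, on few counts in most libraries. Among these, 1 oligodendrocyte lineage marker met the criteria as lower in ipsilateral PTE+ than in sham and on the ipsilateral side of PTE+ mice. In contralateral PTE- against sham and on the ipsilateral side of PTE+ mice, 1 ependymal or choroid plexus marker met them as higher. The share of all genes was 0.49% for ipsilateral PTE+ against sham, 0.458% side to side in PTE+ and 0.751% for contralateral PTE- against sham. The neuronal sum was 97.3 to 1107 TPM in PTE+ and 79.9 to 221 in PTE-. The part of these differences in the values of the members was not tested.

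The second question was whether the 2 hippocampi of a mouse differed. In sham mice, ipsilateral minus contralateral *Mlc1* was 0.091, 0.095, 0.095, 0.12 and 0.22 on the log2(CPM + 1) scale in the 5 mice, higher on the ipsilateral side in each. An exact sign-flip permutation test gave p = 0.0625, the smallest that 5 mice allow. The share of all genes that were higher in each of the 5 was not computed. In edgeR the log2 fold change of *Mlc1* in sham was 0.13. All 10 astrocyte markers were on the higher side there as well, with a median of 0.11 against -0.0024 over all genes. In PTE+ mice the *Mlc1* difference was -0.39, 0.10, 0.11 and 0.12, and in the 8 PTE- mice it lay between -0.54 and 0.29. *Aqp4* differences were -0.046, 0.048, 0.18, 0.63 and 0.91 in sham and -0.21, 0.10, 0.28 and 0.36 in PTE+. Those of *Kcnj10* were -0.69, -0.090, -0.068, -0.0024 and 0.076 in sham and -0.97, -0.032, -0.015 and 1.0002 in PTE+, with 2 PTE+ mice near 0 and the others about equally far below and above it.

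PTE- mice spread widely between hemispheres. Mouse a8_11 was lower on the ipsilateral side for all 7 genes, with differences of -6.65 for *Kcnj10*, -4.29 for *Dag1*, -3.09 for *Dtna* and -2.98 for *Kcnj16*. The other 7 PTE- mice went from -2.15 to 1.67 for *Kcnj10*, from -1.69 to 2.37 for *Kcnj16*, from -0.87 to 2.76 for *Dag1* and from -0.44 to 1.47 for *Hepacam*, each in both directions.

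**Figure D3:**
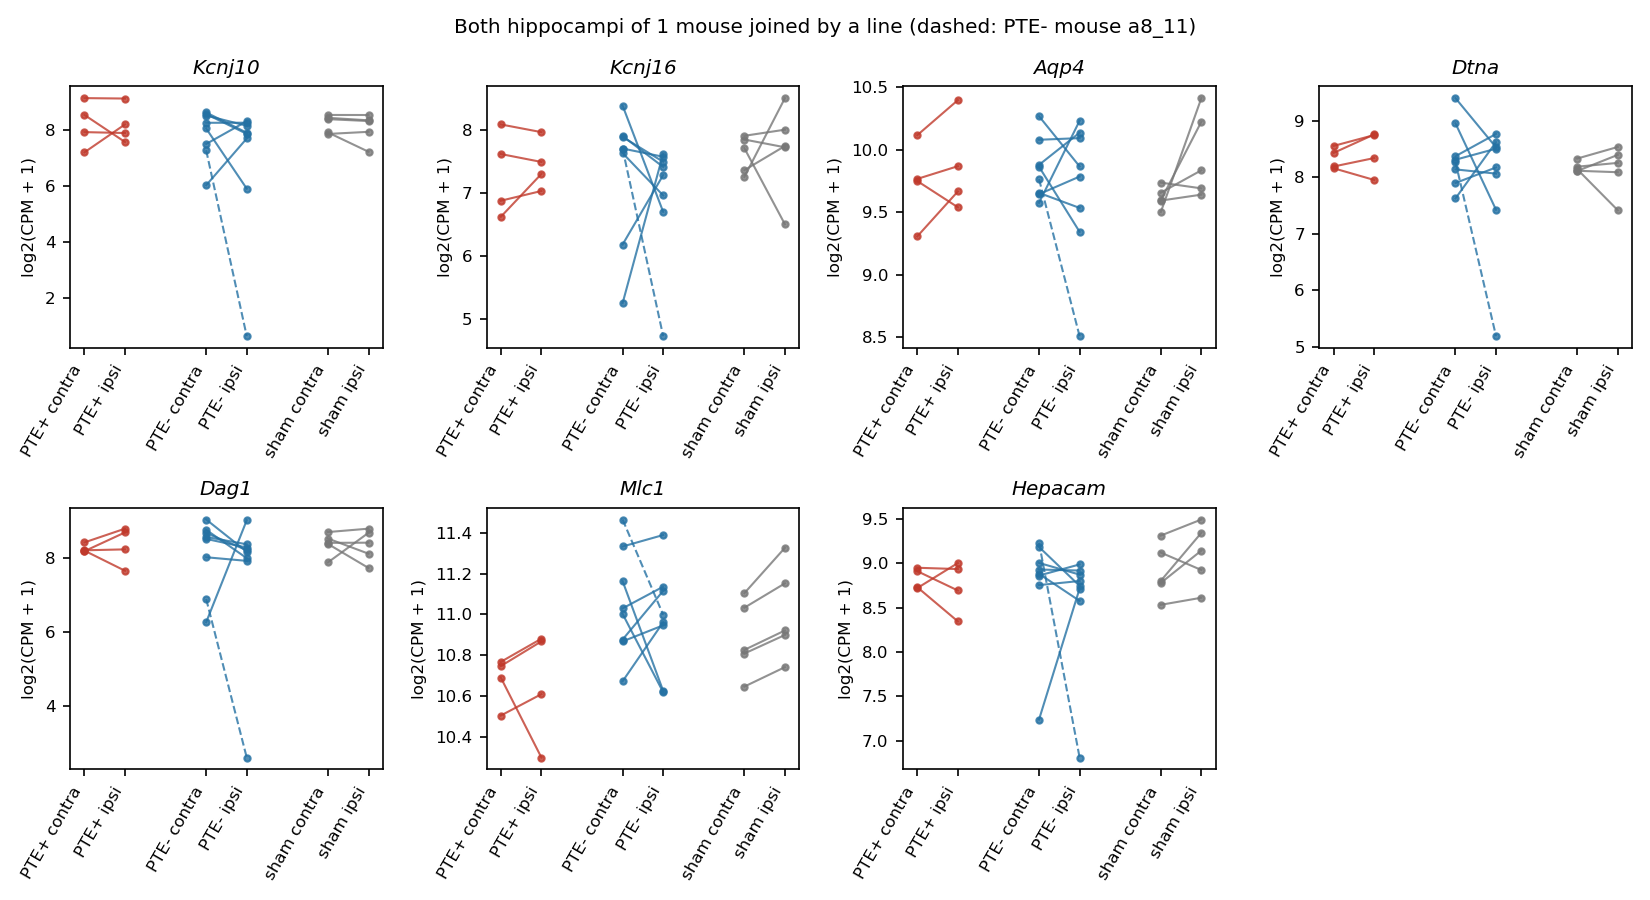
Log2(CPM + 1) of each member (y axis) in the contralateral and ipsilateral hippocampus (x axis) of the 17 mice with both, by group, with 1 line per mouse and a dashed line for PTE- mouse a8_11. *Mlc1* is higher on the ipsilateral side in 5 of 5 sham mice, a count whose share over all genes was not computed. The dashed line falls in all 7 panels.

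Over the 34 libraries of these mice, no member met the criteria or had an unadjusted p below 0.05 in edgeR for ipsilateral against contralateral in PTE+, PTE- or sham, where 0.458%, 1.75% and 0.165% of 15731 genes met the criteria and 2.93%, 4.56% and 2.05% had such a p. DESeq2 gave none either. The same was so for the 2 tests of whether the hemisphere difference itself differed between groups, with 0.439% of genes for PTE+ against PTE- and 0.667% for PTE- against sham under the criteria and 2.94% and 3.13% by unadjusted p. An adjusted p below 0.05 was reached by 0.0% of genes in each of the 5. These fits treated the 2 libraries of a mouse as independent, and a fit with the mouse as a replicate block is given further below. All 7 estimates were lower on the ipsilateral side in PTE- mice (median -0.19, against -0.032 over all genes), and 4 of 7 without a8_11 (median -0.12 against 0.012). For the difference of PTE- from sham all 7 were on the lower side with that mouse (median -0.30 against -0.034) and without it (median -0.15 against 0.020). Without it they went from -0.12 for *Dag1* to -0.41 for *Kcnj16*, with no unadjusted edgeR p below 0.184. The 7 genes were read from the same libraries, so their signs are not independent.

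The third question was whether genes whose products work together went together from mouse to mouse. Pearson's r and Spearman's rho of log2(CPM + 1) were computed for 4 pairs in each hemisphere, with p-values from 100000 permutations adjusted over the 8 tests of each kind. In the 20 contralateral libraries, *Kcnj10* and *Kcnj16* gave r = 0.26 (permutation p = 0.255, adjusted 0.291) and rho = 0.30 (permutation p = 0.201, adjusted 0.403). *Mlc1* and *Hepacam* gave r = 0.36 (permutation p = 0.116, adjusted 0.155) and rho = 0.40 (permutation p = 0.0826, adjusted 0.268). *Aqp4* and *Kcnj10* gave r = 0.39 (permutation p = 0.0888, adjusted 0.142) and rho = 0.38 (permutation p = 0.101, adjusted 0.268), and *Dag1* and *Dtna* r = 0.47 (permutation p = 0.0458, adjusted 0.0916) and rho = 0.11 (permutation p = 0.654, adjusted 0.733). Without the 2 mice farthest from the median of the first gene, r was 0.36, 0.32, 0.27 and 0.33 in that order. All 4 were positive, and none passed the adjusted threshold. After group means were subtracted, r was 0.25 (permutation p = 0.281, adjusted 0.321), 0.50 (permutation p = 0.0251, adjusted 0.0373), 0.50 (permutation p = 0.028, adjusted 0.0373) and 0.54 (permutation p = 0.0232, adjusted 0.0373), so that the last 3 did pass it. These permutations ran over all 20 libraries regardless of group and did not allow for the subtracted means, so these p-values can be too small.

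In the 17 ipsilateral libraries *Aqp4* and *Kcnj10* gave r = 0.82 (permutation p = 3.50e-04, adjusted 0.0028) and rho = 0.44 (permutation p = 0.0826, adjusted 0.268). Without a8_11 the same pair gave r = 0.56 (permutation p = 0.0166, adjusted 0.133), and without the 2 mice farthest from the median r = 0.62, so the positive sign did not rest on that library but the call did. *Kcnj10* with *Kcnj16* gave r = 0.75 (permutation p = 0.0313, adjusted 0.0835) and rho = 0.18 (permutation p = 0.478, adjusted 0.638), and *Dag1* with *Dtna* r = 0.85 (permutation p = 0.029, adjusted 0.0835) and rho = 0.22 (permutation p = 0.401, adjusted 0.638). Both rested on a8_11: without it r was -0.014 and 0.010. *Mlc1* with *Hepacam* gave r = 0.00027 (permutation p = 0.999) and 0.15 without a8_11.

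**Figure D4:**
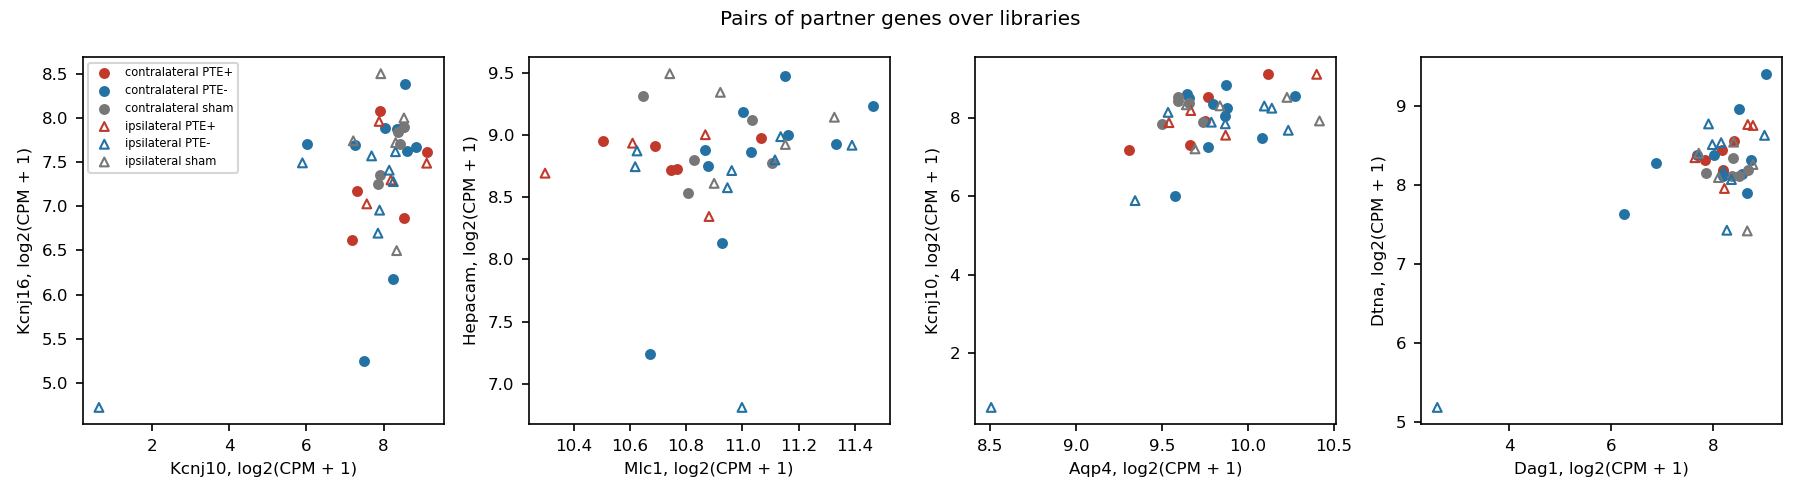
Log2(CPM + 1) of both genes of 4 partner pairs (x and y axes, not starting at 0) in the 37 libraries, with filled circles for contralateral and open triangles for ipsilateral libraries and colours for the groups. The open PTE- triangle far to the lower left in the *Kcnj10*, *Aqp4* and *Dag1* panels is mouse a8_11, without which ipsilateral r is -0.014, 0.56 and 0.010.

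Other genes of these pathways were taken from 3 lists, chosen with earlier results of these data known. Of 15 further genes of the dystrophin complex and its matrix ligands, 1 met the criteria in the contralateral hippocampus, where 1.26% of all genes did for PTE+ against PTE- and 0.751% for PTE- against sham. *Sgcb*, which codes for β-sarcoglycan, was lower in PTE+ than in PTE- (log2 fold change -0.77, SE 0.32, edgeR p = 0.0233) and higher in PTE- than in sham (0.82, SE 0.32, p = 0.0166), with an adjusted p of 0.9998 in both. Its mean was 111 ± 28.9 CPM in PTE+, 188 ± 84.5 in PTE- and 107 ± 37.7 in sham (SD, n = 5, 10 and 5). The highest PTE- values were 319 CPM in a9_14 and 352 in a9_20, where 7.23% and 14.2% of the genes abundant elsewhere held 3 counts or fewer. The 2 comparisons share the PTE- libraries, and 8 of these 10 enter the side-to-side comparison of PTE- mice as well. There 1.75% of all genes met the criteria, and *Sgcb* was lower on the ipsilateral side (-1.24, edgeR p = 0.0335). It was listed at 0 in ipsilateral a8_11, and without that mouse the estimate was -1.11 (edgeR p = 5.16e-04, adjusted p 0.624). None of the 15 met the criteria in the ipsilateral group comparisons. Dystrophin itself (*Dmd*) gave -0.19 for contralateral and 0.079 for ipsilateral PTE+ against PTE-, the latter -0.039 without a8_11.

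Of 6 genes for partners of MLC1 and GlialCAM and for volume regulation, 1 met the criteria, on the side of the lesion, where 0.986% of all genes did for PTE- and 0.49% for PTE+ against sham. The list was chosen with earlier results of these data known, so this count is no independent support. *Gpr37l1* codes for an astrocyte receptor that binds to the MLC1 and GlialCAM complex. It held 3763, 3773, 5119 and 5459.6 CPM in ipsilateral PTE+ libraries, 3505 to 5819 with a median of 4400.3 in PTE-, and 3994, 6347, 7313, 7499.8 and 8425 in sham. Of the 5 sham values, 4 lay above all 12 values of injured mice. The log2 fold change against sham was -0.59 (SE 0.16, edgeR p = 0.0019) in PTE- and -0.57 (SE 0.20, p = 0.00974) in PTE+, with an adjusted p of 0.9999 in both, which share the sham libraries. Of the 10 astrocyte markers, *Aldoc* and *Aldh1l1* were lower by like amounts in the same 2 comparisons, while 3 in PTE- and 1 in PTE+ were on the higher side. The part of this in the values of *Gpr37l1* was not tested. PTE+ against PTE- gave 0.024. Unlike most members, it was not low in a8_11 (4719 CPM). The chloride channel gene *Clcn2* gave -0.50 and -0.074 against sham in ipsilateral PTE- and PTE+, neither past the test, and the first was -0.29 without a8_11. In contralateral PTE+ against PTE-, 5 of the 6 list genes were on the lower side and 1 on the higher, and 0 met the criteria. Their median log2 fold change was -0.41, against -0.047 over all genes.

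Of 15 further potassium and water routes of astrocytes, 14 were abundant enough to be tested contralaterally and 15 ipsilaterally, and none met the criteria in the 6 group comparisons. The potassium leak channel *Kcnk1* gave -1.10 (SE 0.88) for ipsilateral PTE- and -1.37 (SE 1.09) for PTE+ against sham, and the first was -0.89 (SE 0.44) without a8_11. The sodium pump subunit *Atp1b2* gave -0.24 and -0.34, and the glutamate transporter *Slc1a2*, from the astrocyte markers, -0.36 and -0.14. Without a8_11 their PTE- values were -0.15 and -0.20. *Aqp1*, a water channel of the choroid plexus, had an unadjusted p of 0.023 for ipsilateral against contralateral in PTE+, on counts too few to meet the TPM limit. As a description, the 5 non-member genes most like the mean of the 7 over the 37 libraries, among genes above 5 TPM, were *Cadm2*, *Sirpa*, *Adgrg1*, *Psd2* and *Me1*, with Pearson's r from 0.93 to 0.95. The library of a8_11 carried much of this, and without it r was 0.61 to 0.69 and the 5 most like were *Scd2*, *Fads2*, *Gpam*, *Atp2c1* and *Hk1* (0.76 to 0.82). The points share depth and library quality.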

How the data were processed

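Libraries had been made with SMART-Seq V4 from bead-isolated hippocampal astrocytes. Per the methods and the submitters' processing notes, the authors trimmed reads with Trim Galore 0.6.4 and quantified genes with RSEM 1.2.28 and Bowtie2 2.4.1 against mm10. The deposited files hold expected counts and TPM values per gene, and the authors tested them with DESeq2 1.36.0. The expected counts had been rounded to whole numbers before deposit and were used as they were. All 7 members were found by gene ID in a table of GENCODE names.

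Counts were filtered with filterByExpr, TMM-scaled and tested with edgeR 4.0.16 (quasi-likelihood, R 4.3.3), with the 3 groups of a hemisphere in 1 fit, or 6 groups over the 34 libraries of 17 mice, and Benjamini-Hochberg adjustment over all genes tested. The second call rule, from the methods, was an unadjusted p below 0.05, a 1.2-fold difference and a mean above 5 TPM in at least 1 group. Alternatives used DESeq2 1.42.0, limma 3.58.1 on log2(TPM + 1) with a pseudocount of 1, voom quality weights, RLE factors, library totals, no filter, covariates and leaving out each library. Exact two-sided permutation tests used log2(CPM + 1). The edgeR test was also run on simulated counts. Recovery of known changes was required there only at a spread far below that of these data. At a spread like theirs, only the rate of p below 0.05 among unchanged genes was checked. Losses of single transcripts from a library were not simulated. The labels name each mouse, and within a hemisphere p-values measure the spread between libraries of different mice. The main side-to-side fits treated both libraries of a mouse as independent, while the sign-flip tests used differences within mice. Both libraries of a mouse deviated together weakly (median r 0.079 over 17 mice, -0.016 for other mice of its group). Each member had a median of 8507 or more counts per library, so counting error is small beside the spread between libraries. With 1 library per mouse and side, spread between mice and loss of transcripts in a library cannot be told apart.

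The members and gene lists were chosen with earlier results of these data known. Named besides the members were list genes with an unadjusted p below 0.05 in a comparison, 6 list genes for orientation, of which 1 is not reported here, and the 5 genes most like the members' mean by Pearson's r over 37 libraries. Alternatives for mouse a8_11 (list genes included) and genes within 2-fold of a member's level were chosen after seeing the data. Sequences came from RefSeq promoter windows (GRCm38.p6), and positions from GENCODE M21 (GRCm38).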

Additional observations from a re-analysis of the deposited data

Results flagged for a closer look

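In the ipsilateral PTE- group, mouse a8_11 lay apart from the other 7 mice by Dixon's criterion for 5 of the 7 members. Its values were 0.534, 25.4, 35.5, 5.04 and 111 CPM for *Kcnj10*, *Kcnj16*, *Dtna*, *Dag1* and *Hepacam*. On the log2(CPM + 1) scale its gap to the nearest mouse was 0.62 to 0.83 of the range of the 8 mice. These were all 5 of the 42 sets of a member in a group that were marked, and chance marks about 1 set in 20. The 5 come from 1 library, the ipsilateral one of a8_11, so they are not independent and cannot be set against that rate as separate sets. The contralateral library of the same mouse was not marked for any member. No test of a difference between groups in the hemisphere contrast had p below 0.05 for a member.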

How the results depend on the processing

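No member reached an adjusted p below 0.05 under any alternative run, so all 116 counts with 1 library or mouse left out and all 74 others stayed at 0. The count of members that met the criteria for contralateral PTE+ against PTE- was 1 and became 0 with a 1.5-fold minimum, with library totals alone and with limma on log2(TPM + 1), and 0 to 1 with 1 library left out (0 without PTE+ a8_10, a9_17 or a9_19 and PTE- a8_11, a8_13 or a9_13). For ipsilateral PTE+ against PTE- it was 0 and became 1 with voom quality weights, and 0 to 1 with 1 library left out (1 without PTE- a8_14 or a9_12). For ipsilateral PTE- against sham it was 0, and 0 to 1 with 1 left out (1 without sham a9_10). The median log2 fold change of the members for contralateral PTE- against sham was -0.0096 and -0.31 with limma on log2(TPM + 1), where that of all genes was 0.068 and -0.22. With voom quality weights the members' median was 0.058 there, -0.070 for ipsilateral PTE+ against PTE- (from 0.28) and 0.038 for ipsilateral PTE- against sham (from -0.26), all of the other sign. The medians of all genes under these weights were -0.10, -0.050 and -0.044 in that order. For ipsilateral PTE+ against sham the members' median was -0.088, and 0.061 with library totals alone and 0.012 with limma on log2(TPM + 1), where all genes stood at 0.15 and 0.17. The members' median also turned for contralateral PTE+ against PTE- with limma on log2(TPM + 1) (0.044, where that of all genes was 0.28) and for contralateral PTE- against sham with detected genes as a covariate (0.020, where that of all genes was 0.11). The cause was not tested. Scaling by library totals alone moved the median of all genes by over 0.1 for contralateral PTE+ against PTE- (-0.047 to 0.064) and ipsilateral PTE+ against sham (0.0016 to 0.15).

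Both hippocampi came from the same mouse, so the mice pair the libraries. With the mouse as a replicate block no member passed either threshold, and the median log2 fold changes of the members were 0.092 in PTE+, -0.38 in PTE- and 0.084 in sham, 0.52 for the difference of PTE+ from PTE- and -0.44 for that of PTE- from sham. No call of a member changed with the block.

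Single log2 fold changes that changed sign, none of them past the threshold on either side, were these. With name prefix as covariate, *Kcnj10* -0.030 (contralateral PTE+ against PTE-), and *Dag1* -0.13 (ipsilateral PTE+ against sham). Under limma voom with quality weights, *Kcnj10* -0.15 and *Kcnj16* 0.089 and *Dag1* 0.083 (contralateral PTE+ against PTE-), and *Kcnj10* 0.056 and *Hepacam* 0.058 (contralateral PTE- against sham), and *Aqp4* -0.23 and *Dtna* -0.20 and *Hepacam* -0.070 (ipsilateral PTE+ against PTE-), and *Kcnj10* 0.068 and *Aqp4* 0.13 and *Dtna* 0.13 and *Mlc1* 0.038 (ipsilateral PTE- against sham), and *Kcnj16* 0.12 and *Dtna* -0.073 and *Dag1* -0.043 (ipsilateral PTE+ against sham). Under limma on log2(TPM + 1), *Aqp4* 0.044 and *Dag1* 0.30 and *Hepacam* 0.23 (contralateral PTE+ against PTE-), and *Dtna* 0.066 and *Mlc1* 0.049 (ipsilateral PTE- against sham), and *Aqp4* 0.012 (ipsilateral PTE+ against sham). With detected genes as covariate, *Dag1* 0.027 (contralateral PTE+ against PTE-), and *Hepacam* 0.020 (contralateral PTE- against sham), and *Dtna* 0.070 (ipsilateral PTE- against sham). With RLE size factors, *Hepacam* 0.0022 (contralateral PTE+ against PTE-), and *Dtna* 0.040 and *Mlc1* 0.054 (ipsilateral PTE- against sham), and *Mlc1* 0.010 (ipsilateral against contralateral within PTE-), and *Dtna* -0.017 (ipsilateral against contralateral within sham). With library totals alone, *Hepacam* 0.098 (contralateral PTE+ against PTE-), and *Kcnj10* 0.0085 (contralateral PTE+ against sham), and *Dtna* 0.090 and *Mlc1* 0.064 (ipsilateral PTE- against sham), and *Aqp4* 0.061 (ipsilateral PTE+ against sham). Under DESeq2, *Hepacam* 0.0021 (contralateral PTE+ against PTE-), and *Dtna* 0.041 and *Mlc1* 0.054 (ipsilateral PTE- against sham), and *Mlc1* 0.0095 (ipsilateral against contralateral within PTE-), and *Dtna* -0.017 (ipsilateral against contralateral within sham). With no filter on low counts, *Dtna* 0.025 (ipsilateral PTE- against sham), and *Mlc1* -0.0055 (ipsilateral against contralateral within PTE+). With the 2 compared groups alone, *Dtna* 0.00025 (ipsilateral PTE- against sham). With the mouse as a replicate block, *Mlc1* -0.012 (ipsilateral against contralateral within PTE+), and *Dtna* -0.037 (ipsilateral against contralateral within sham).

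With 1 library or mouse left out, the estimates that crossed 0 ranged as follows. For contralateral PTE+ against PTE- they were *Kcnj10* -0.35 to 0.22, *Dtna* -0.17 to 0.069, *Dag1* -0.20 to 0.040 and *Hepacam* -0.12 to 0.086. For contralateral PTE- against sham they were *Kcnj10* -0.17 to 0.052, *Kcnj16* -0.13 to 0.12 and *Hepacam* -0.16 to 0.051. For contralateral PTE+ against sham they were *Kcnj10* -0.42 to 0.15 and *Hepacam* -0.16 to 0.039. For ipsilateral PTE+ against PTE- they were *Aqp4* -0.073 to 0.24 and *Hepacam* -0.0063 to 0.22. For ipsilateral PTE- against sham they were *Dtna* -0.14 to 0.20 and *Mlc1* -0.090 to 0.071. For ipsilateral PTE+ against sham they were *Kcnj10* -0.23 to 0.37, *Aqp4* -0.30 to 0.041 and *Dag1* -0.14 to 0.20. For ipsilateral against contralateral within PTE+ they were *Kcnj10* -0.27 to 0.19, *Kcnj16* -0.083 to 0.19, *Mlc1* -0.054 to 0.11 and *Hepacam* -0.18 to 0.0070. For ipsilateral against contralateral within PTE- they were *Aqp4* -0.20 to 0.027, *Mlc1* -0.12 to 0.0025 and *Hepacam* -0.33 to 0.030. For ipsilateral against contralateral within sham they were *Kcnj16* -0.13 to 0.41, *Dtna* -0.068 to 0.14 and *Dag1* -0.20 to 0.11. For hemisphere difference of PTE+ against PTE- they were *Hepacam* -0.065 to 0.26. For hemisphere difference of PTE- against sham they were *Dag1* -0.52 to 0.0018.

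The correlations changed most. Permutations of deviations from the group mean ran over all libraries of a hemisphere and did not allow for the subtracted means. With deviations from the group mean, r became 0.72 for Kcnj10 with Kcnj16, ipsilateral (adjusted p 0.0373), 0.50 for Mlc1 with Hepacam, contralateral (adjusted p 0.0373), -0.039 for Mlc1 with Hepacam, ipsilateral (adjusted p 0.89), 0.50 for Aqp4 with Kcnj10, contralateral (adjusted p 0.0373), 0.54 for Dag1 with Dtna, contralateral (adjusted p 0.0373), 0.85 for Dag1 with Dtna, ipsilateral (adjusted p 0.029). With log2(TPM + 1), r became 0.76 for Kcnj10 with Kcnj16, ipsilateral (adjusted p 0.0388), 0.46 for Mlc1 with Hepacam, contralateral (adjusted p 0.046), 0.63 for Aqp4 with Kcnj10, contralateral (adjusted p 0.0136), 0.58 for Dag1 with Dtna, contralateral (adjusted p 0.0231), 0.69 for Dag1 with Dtna, ipsilateral (adjusted p 0.0368). In an alternative added after the data were seen, without the ipsilateral library of mouse a8_11, r became -0.014 for Kcnj10 with Kcnj16, ipsilateral (adjusted p 0.97), 0.56 for Aqp4 with Kcnj10, ipsilateral (adjusted p 0.133).

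Pseudocounts of 0.5 and 5 left 2 of the 77 permutation tests with p below 0.05, as did leaving out both libraries of a8_11, also chosen after seeing the data. Within the a8 prefix the ipsilateral *Mlc1* difference of PTE+ from PTE- became 0.019, with 1 PTE+ mouse.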
